A study of Mus musculus with 192 samples.

Results

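The genes described here are 10 gene names, Nnt, Tmem267, Acadl, Lancl1, Wdfy1, Entpd4, Entpd4b, Capza1, Cdc42bpg and Bcat2, which were chosen by a measured value, namely their difference between Nrf2-KO and WT mice across tissues. They correspond to 11 of the 54752 gene identifiers in the expression table, because Nnt has 2 identifiers. By their reads they were 9 distinct genes, since Entpd4 and Entpd4b could not be told apart. Because the genotype difference selected them, that difference is given below as a description without a test, and tests are given only for flight, for the change of the genotype difference in flight, and for genes that were not on the list.

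RNA was sequenced from 9 tissues of male mice labelled C57BL/6 and 12 weeks old, namely the liver (Liv), the kidney (Kid), the spleen (Spl), the thymus (Thy), the cerebrum (Cbr), white fat of the epididymis (eWAT), brown fat from between the shoulder blades (iBAT), and bone of the temple (TpB, temporal) and the lower jaw (MdB, mandibular). The paper gives that age for the mice before the space flight, so they were older when tissues were taken. The 4 groups were wild-type and Nrf2-knockout mice kept on the International Space Station (FL_WT and FL_KO) and wild-type and Nrf2-knockout mice kept in the same housing on the ground (GC_WT and GC_KO). Tissues of the flight mice were taken after their return to Earth. The knockout mice carried a targeted allele of Nfe2l2, the gene that encodes Nrf2, in all cells, and were a breeding line on a C57BL/6J background, so the knockout itself and anything else that set that line apart from the WT animals cannot be told apart here. Each group had 6 mice in 7 tissues and 3 in MdB and Kid, and leaving out the flight mouse 04, an Nrf2-KO animal with an intestinal haemorrhage, reduced FL_KO to 5 mice, or 2 in MdB. This left 184 of 192 libraries from 23 mice, and since the same mice gave the tissues, tissues are not independent replicates.

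Nnt encodes nicotinamide nucleotide transhydrogenase, an enzyme of the inner mitochondrial membrane that uses the proton gradient to make NADPH from NADH. Mice of the C57BL/6J substrain are known to carry a deletion within Nnt that C57BL/6N mice lack, and the mouse reference genome was made from C57BL/6J, so Nnt is a familiar marker of substrain. The values here are per gene and do not show which exons were read. Nrf2 is a transcription factor that drives genes of glutathione synthesis, NADPH supply and detoxification through antioxidant response elements in their promoters.

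Library totals ran from 8.01 M to 16.3 M counts, with the thymus libraries, made from rRNA-depleted total RNA instead of poly(A) RNA, the shallowest. Nfe2l2 transcript was lower in Nrf2-KO mice in every tissue, with a mean TPM (transcript abundance scaled for length and library) between 28.2% of the WT mean in Cbr and 81.9% in Spl, and no library of one genotype overlapped the other in any tissue. The Cbr libraries carried forebrain transcripts (a median of 515 TPM for Slc17a7 and 54.2 for Neurod6) and had a median of 0 TPM for the cerebellar genes Gabra6 and Pcp2, while Cbln1, the last of the 3 cerebellar genes examined, had a median of 14.1 TPM (8.89 to 31.3). The TpB libraries were mixed, with a summed TPM of 4 skeletal muscle genes from 5.69 in the GC_KO mouse 01 to 19292 in another GC_KO mouse. They also held neuronal transcripts, with a summed TPM of 3 forebrain genes from 30.4 to 312 and of 3 cerebellar genes from 1.53 to 1506. The median cerebellar sum was 303 TPM in GC_WT, 4.99 in FL_WT, 256 in GC_KO and 1120 in FL_KO, and the part of these transcripts in the TpB values was not tested. In iBAT, 3 libraries, all from flight mice (FL06 and FL08 of FL_WT and FL11 of FL_KO), had a muscle sum above 1000 TPM, and the others stayed at or below 50.5.

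Sequence decided what could be measured for 4 of the names. The table was made with RSEM, which divides a read among all the transcripts it matches, so a gene without a sequence of its own receives an estimate and not a count. All 4105 of the 76-base windows (the read length) in the annotated transcripts of Entpd4 were also found in those of Entpd4b, and the other way round, and 5 of the 6 transcripts of Entpd4 had an identical partner. The first 76 coding bases, with the start codon in capitals, show this; the annotation (GRCm38, chromosome 14, plus strand) places them at chr14:69347587-69349140 for Entpd4 and at chr14:69565837-69567390 for Entpd4b, in both cases across an intron.
Entpd4: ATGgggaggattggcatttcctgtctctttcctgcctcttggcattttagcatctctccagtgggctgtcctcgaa
Entpd4b: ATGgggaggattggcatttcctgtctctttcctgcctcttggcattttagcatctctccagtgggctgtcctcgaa
The pair is therefore described as 1 gene by the sum of both.

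The 2 Nnt identifiers are overlapping gene models on the minus strand of chromosome 13. All of the 3264 windows of ENSMUSG00000116207 also lie in ENSMUSG00000025453, whereas 74.4% of the windows of ENSMUSG00000025453 lie in ENSMUSG00000116207. The first 76 coding bases of both models are the same stretch of genome, chr13:119404627-119404702 (GRCm38, minus strand), shown with the start codon in capitals.
Nnt: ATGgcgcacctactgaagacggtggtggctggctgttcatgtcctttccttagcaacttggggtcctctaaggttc
How the estimate was divided between the models varied from library to library, and the genotype log2 fold change of ENSMUSG00000025453 ran from 0.49 in Thy to 3.45 in Liv while that of ENSMUSG00000116207 ran from 0.04 in Cbr to 1.43 in iBAT. Nnt is described below by the sum of both.

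Capza1 encodes the alpha subunit of the F-actin capping protein. It shared 64.8% of its 76-base windows with Gm3608, an annotated pseudogene on chromosome 1 that is not on the list. Along 804 of the 861 coding bases of Capza1 the alignment to Gm3608 had no gap and 3 mismatches, an identity of 99.6%. A stretch around one mismatch (coding bases 505 to 580 of Capza1) is shown because a read can be assigned to one or the other only where they differ; the mismatch is in capitals, and positions are GRCm38.
Capza1: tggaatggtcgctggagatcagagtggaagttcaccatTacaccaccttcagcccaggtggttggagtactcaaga
Gm3608: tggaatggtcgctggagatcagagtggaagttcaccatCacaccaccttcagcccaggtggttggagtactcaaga
The Capza1 stretch lies at chr3:104834103-104834726 on the minus strand, across an intron, and the Gm3608 stretch at chr1:105456487-105456562 on the plus strand. The expected count of Capza1 was a whole number in 10 of 184 libraries, those of Entpd4 and Entpd4b in 6 and those of Nnt in 14. By contrast, Tmem267, Acadl, Lancl1, Cdc42bpg and Bcat2 had whole counts in all 184 and Wdfy1 in 183, and none of their windows occurred in another gene's transcripts.

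A gene was called when its Benjamini-Hochberg adjusted p across all genes of a tissue was under 0.05 in edgeR's quasi-likelihood test, and the genotype difference was the mean of flight and ground. For the listed genes, calls by genotype restate how the list was chosen, so they are counted here only to describe the list, and nothing is read from them. The same holds where their WT and KO mice did not overlap. Of all 11230 genes tested in 9 tissues, 11 (0.098%) had no overlap in 1 direction in every tissue, and the share within single tissues is not given here. The number of the 9 distinct genes over this threshold was 6 in TpB, 7 in MdB, 9 in Spl, 7 in Liv, 9 in eWAT, 9 in iBAT, 8 in Thy, 7 in Kid and 7 in Cbr. Across all genes tested, the called share was 0.363% in TpB, 0.513% in MdB, 3.61% in Spl, 8.91% in Liv, 3.77% in eWAT, 3.3% in iBAT, 11.4% in Thy, 4.59% in Kid and 1.81% in Cbr. By the choice of the list, Nnt, Wdfy1 and the Entpd4 pair were over it with higher values in Nrf2-KO mice, and Tmem267, Capza1 and Cdc42bpg with lower values, in all 9 tissues. For Nnt this holds only for the sum, which was chosen after seeing the data. Alone, ENSMUSG00000025453 was over the threshold in 7 tissues and ENSMUSG00000116207 in 5. Lancl1 and Bcat2 were each over it in 5 tissues, with lower values, and Acadl in 4 with lower and 1 with higher values, so these 3 genes were not called in every tissue. The missing calls do not show that there was no difference. With limma on log2(TPM + 1), Lancl1 in Liv and Thy and Acadl in Cbr were also called, and the call of Acadl in MdB was lost. In MdB the call of Acadl was lost when any of 8 of the 11 libraries was left out, and the calls of Bcat2 were lost in Thy without FL12 and in eWAT without FL11. Here and below, single libraries were left out only from groups of 5 or fewer, which outside MdB and Kid were those of FL_KO.

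**Figure D1:**
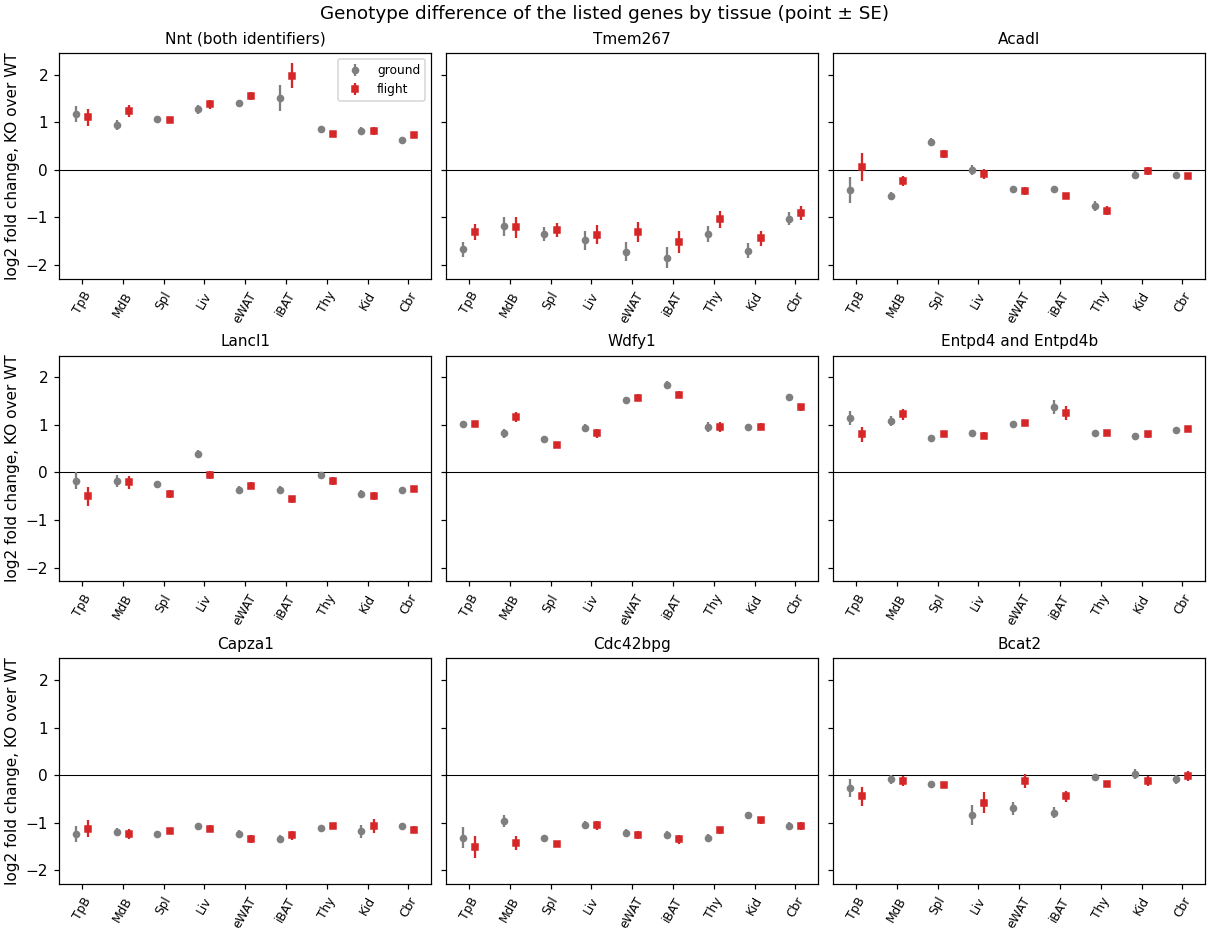
Genotype log2 fold change (KO over WT, vertical axis) of the 9 distinct genes in each tissue, for ground mice (grey circles) and flight mice (red squares), with standard errors. Ground and flight points are drawn side by side for each tissue. Tmem267, Capza1 and Cdc42bpg lie below 0 in all 9 tissues, and Acadl lies on both sides of 0.

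Nnt was about 2-fold higher in Nrf2-KO mice, with a median log2 fold change over tissues of 1.09 (2.13-fold). In Spl, the 12 WT mice ran from 11.1 to 14.1 TPM with a median of 12.7, and the 11 KO mice from 22.6 to 28.4 with a median of 26.9. In eWAT, the WT mice ran from 10.3 to 14.1 TPM (median 12.2) and the KO mice from 30.4 to 39.1 (median 35.4). In Cbr the distance was shorter, with WT mice from 10.5 to 13.4 TPM (median 11.6) and KO mice from 16.1 to 21.4 (median 19.1). No KO mouse overlapped a WT mouse in these tissues or in TpB, MdB, Liv, Thy or Kid.
In Kid, where Nnt was most abundant, the GC_WT mice had 47.2, 43.7 and 48.6 TPM and the FL_WT mice 47.4, 47.5 and 48.6. The GC_KO mice had 94.5, 76.5 and 80.3 TPM and the FL_KO mice 86.5, 87.5 and 84.4. Every kidney of the Nrf2-KO mice was thus above every WT kidney, by a log2 difference of 0.81 (SE 0.0607).
Brown fat stood at the other end. WT mice had 0.41 to 1.39 TPM of Nnt (median 0.555) and KO mice 0.84 to 7.43 (median 2.04), and the genotypes overlapped once flight and ground mice were pooled, although not within either. The log2 fold change there was the largest of any tissue, 1.75 (SE 0.19), at the lowest level of Nnt in any tissue. The highest iBAT value, 7.43 TPM, came from FL11, one of the libraries with muscle transcripts; without the 3 such libraries the genotype difference was 1.76 (SE 0.154).

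Tmem267 encodes a transmembrane protein of little known function and starts 153 kb from Nnt, with 3 other protein-coding genes between them. It was lower in Nrf2-KO mice in all 9 tissues, with a median log2 fold change of -1.42 (WT 2.68-fold over KO), from -1.68 in iBAT to -0.97 in Cbr. In Kid the GC_WT mice had 72.4, 68.4 and 66.3 TPM, the FL_WT mice 73.8, 77.6 and 73.2, the GC_KO mice 18.4, 17.1 and 27.6, and the FL_KO mice 20.8, 24.7 and 36.5. The 6 KO kidneys lay between 17.1 and 36.5 TPM, a wider relative span than the WT kidneys at 66.3 to 77.6. In Thy, the FL_KO mice had 4.36, 4.29, 1.8, 2.49 and 4.57 TPM, against 6.37 to 8.52 in the 6 FL_WT mice. Genotypes did not overlap except in Liv, where the KO maximum of 15.3 TPM passed the WT minimum of 14.6.

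Cdc42bpg encodes MRCK gamma, a kinase that acts downstream of the small GTPase Cdc42 on the actomyosin skeleton. It was lower in Nrf2-KO mice by a median log2 fold change of -1.23, from -1.42 in TpB to -0.90 in Kid, and genotypes overlapped in none of the 9 tissues. In Spl the 12 WT mice had 21.6 to 26.8 TPM (median 23) and the 11 KO mice 7.82 to 9.82 (median 8.78). In MdB the WT mice had 47.4, 46.6 and 45.3 TPM on the ground and 48.9, 55.8 and 78.6 in flight, and the KO mice 24.2, 19.5 and 26.9 on the ground and 23.6 and 19.1 in flight. In Cbr, where the gene was low, WT mice had 5.04 to 6.49 TPM and KO mice 2.12 to 3.06.

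Wdfy1 encodes an endosomal protein with WD repeats and a FYVE domain, the latter a fold that binds phosphatidylinositol 3-phosphate. Its level was higher in Nrf2-KO mice by a median log2 fold change of 0.99 (1.99-fold), from 0.64 in Spl to 1.74 in iBAT. In Cbr the WT mice had 7.8 to 12 TPM (median 9.81) and the KO mice 22.6 to 30.6 (median 25.8). In iBAT the WT mice had 2.18 to 4.07 TPM (median 3.04) and the KO mice 6.23 to 11.1 (median 7.43). Genotypes overlapped in TPM in Liv, at 4.82 to 8.76 against 7.9 to 10.5, and in Thy, at 3.25 to 5.83 against 3.3 to 8.24. The 2 scales differed in Thy, where the log2 difference on normalised counts was 0.96 (SE 0.0741).

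The Entpd4 pair encodes nucleoside diphosphatases of the Golgi apparatus and lysosome-like vesicles. Their summed level was higher in Nrf2-KO mice by a median log2 fold change of 0.90 (1.87-fold), and the genotypes overlapped in none of the 9 tissues. In Liv the WT mice had 15.5 to 20.1 TPM (median 18.8) and the KO mice 27.2 to 38.3 (median 33). In iBAT the WT mice had 44.2 to 98.5 TPM (median 60.2) and the KO mice 113 to 171 (median 148), the largest difference of any tissue (log2 1.31, SE 0.103). The TpB library of the GC_KO mouse 01, with little muscle RNA and neuronal sums of 159 (forebrain) and 55 TPM (cerebellar), reached 226 TPM against 84.7 as the lowest KO value; leaving it out moved the log2 difference from 0.98 to 0.89.

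**Figure D2:**
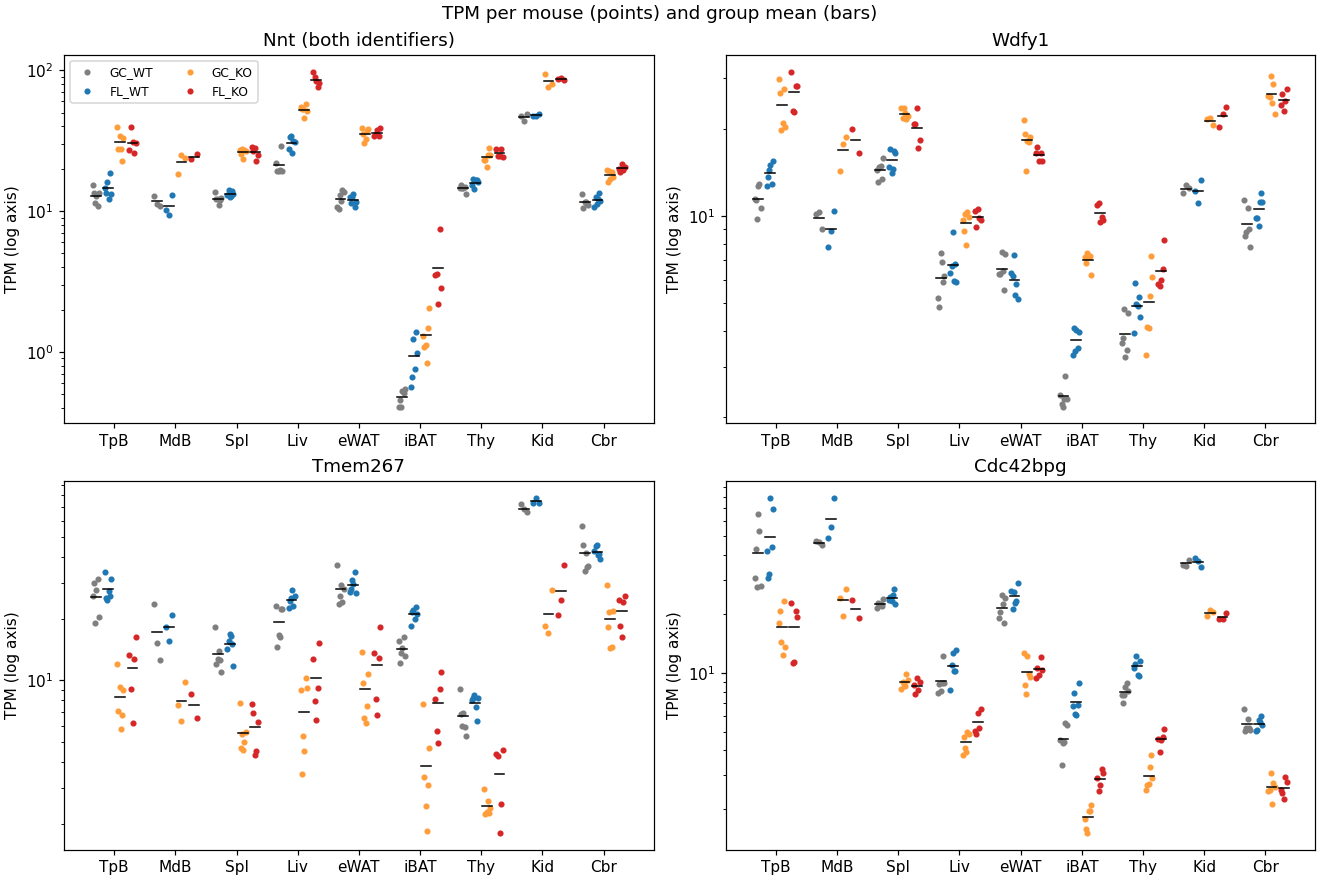
TPM on a log axis for each mouse (points) and the group mean (black bars) in the 9 tissues, for Nnt as the sum of both identifiers, Wdfy1, Tmem267 and Cdc42bpg, with GC_WT in grey, FL_WT in blue, GC_KO in orange and FL_KO in red. KO points lie above WT points for Nnt and Wdfy1 and below them for Tmem267 and Cdc42bpg, with overlap in iBAT for Nnt, in Liv and Thy for Wdfy1 and in Liv for Tmem267.

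Capza1 was lower in Nrf2-KO mice by a log2 fold change between -1.31 in iBAT and -1.10 in Liv and Thy, the narrowest span of the 9 genes. In Spl the 12 WT mice had 157 to 180 TPM (median 176) and the 11 KO mice 68 to 81.3 (median 72.3). In Kid the WT mice had 21.2 to 24.9 TPM and the KO mice 6.74 to 12.7. Genotypes overlapped in no tissue.
Gm3608 moved the opposite way in the same libraries. It took at most 4.1% of the summed expected count of Capza1 and Gm3608 in any WT library, and between 42.2% and 64.4% in every KO library. It was called higher in Nrf2-KO mice in all 9 tissues, where its lowest TPM in KO libraries, 8.28 in Liv, lay above its highest in WT libraries, 4.49 in Spl.
When both were summed, the genotypes overlapped in all 9 tissues. The summed count in Spl ran from 3855 to 4250 in WT mice and from 3690 to 4089 in KO mice, and in Cbr from 545 to 640 and from 540 to 699. The log2 fold change of the sum had a median of -0.10 and ran from -0.17 in iBAT to 0.00 in Liv, and of 9 tissues 2 were called lower, iBAT (SE 0.0478) and Thy (-0.13, SE 0.0356). So the estimate of Capza1 alone was lower in every tissue and that of Gm3608 higher, while their total lay within 0.17 on the log2 scale between genotypes.

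**Figure D3:**
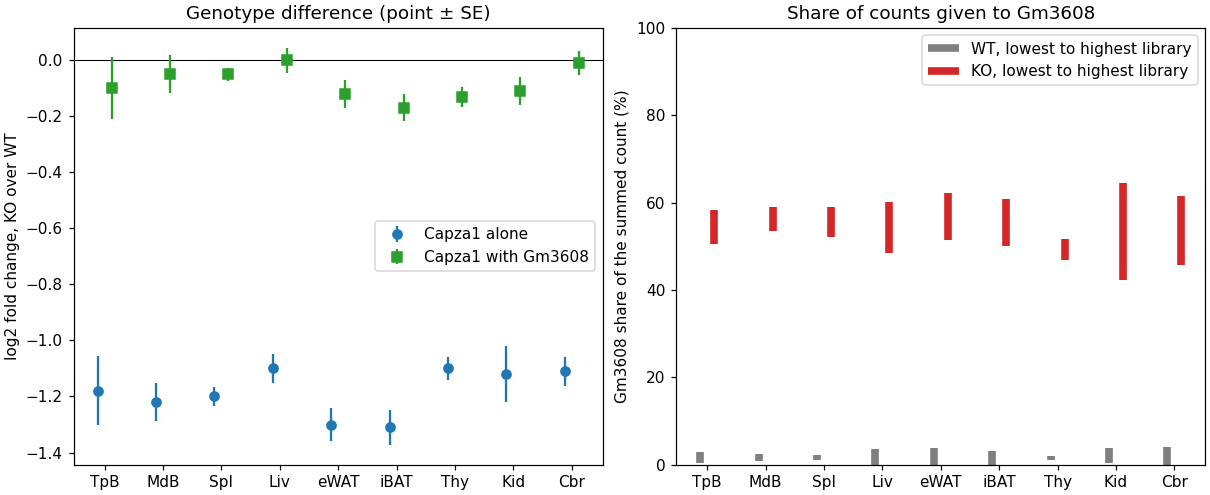
Left, genotype log2 fold change (KO over WT) of Capza1 alone (blue circles) and of Capza1 with Gm3608 (green squares) by tissue, with standard errors. Right, the share of the summed expected count given to Gm3608, drawn from the lowest to the highest library of each genotype, which stays at or below 4.1% in WT (grey) and lies between 42.2% and 64.4% in KO (red).

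Among the metabolic genes, Acadl, which encodes long-chain acyl-CoA dehydrogenase of mitochondrial fatty acid oxidation, had no common direction. It was lower in Nrf2-KO mice in Thy (log2 -0.81, SE 0.069), iBAT (-0.48, SE 0.0447), eWAT (-0.43, SE 0.0587) and MdB (-0.39, SE 0.0693), and higher in Spl (0.45, SE 0.0616). In iBAT, where Acadl was most abundant, the WT mice had 1277 to 1631 TPM and the KO mice 964 to 1094, with no overlap. In Spl the GC_WT mice had 62 to 74.7 TPM and the GC_KO mice 83.7 to 114, whereas the FL_KO mice, at 69.8 to 103, overlapped the FL_WT mice at 60.8 to 77.6. In Liv, Kid, TpB and Cbr the log2 difference was -0.04, -0.07, -0.18 and -0.12, with WT and KO mice overlapping.
Lancl1 encodes a glutathione-binding protein of the LanC family and starts 170 kb from Acadl. It was called lower in Nrf2-KO mice in Kid (log2 -0.48, SE 0.058), iBAT (-0.46, SE 0.051), Spl (-0.35, SE 0.0564), Cbr (-0.35, SE 0.0299) and eWAT (-0.32, SE 0.0525), and its difference in Liv was 0.17 (SE 0.0605). Genotypes were apart only in Kid and Cbr.
Bcat2 encodes the mitochondrial branched-chain aminotransferase. Its largest differences were in Liv (log2 -0.71, SE 0.154) and iBAT (-0.62, SE 0.0859), and in Kid and Cbr it differed by -0.05 (SE 0.07) and -0.06 (SE 0.07). Spl was the only tissue in which WT and KO mice did not overlap for Bcat2 (log2 -0.20, SE 0.0275).

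Levels by tissue in the GC_WT mice differed from gene to gene. Nnt was highest in Kid (46.5 ± 2.52 TPM, SD, n = 3), then Liv (21.3 ± 3.85, n = 6), and lowest in iBAT (0.478 ± 0.0608, n = 6); from Thy to Cbr, at 14.5 to 11.5 TPM, each tissue overlapped the next in the order. Tmem267 was also highest in Kid (69 ± 3.14 TPM, n = 3) and lowest in Thy (6.69 ± 1.33, n = 6). Acadl was highest in iBAT (1400 ± 98.2 TPM, n = 6) and lowest in Thy (13.3 ± 1.19, n = 6), and eWAT and Kid, at 261 and 251 TPM, overlapped. Bcat2 was highest in eWAT (272 ± 44.8 TPM, n = 6), above all other tissues, and lowest in Cbr (10.7 ± 1.41, n = 6), where it overlapped Liv. Lancl1 was highest in Cbr (154 ± 8.78 TPM, n = 6) and lowest in iBAT (13.5 ± 1.2, n = 6). Wdfy1 and Capza1 were highest in Spl, at 14.4 ± 1.02 and 175 ± 4.88 TPM (n = 6 each), the Entpd4 pair in Kid (95.2 ± 11, n = 3), and Cdc42bpg in MdB (46.5 ± 1.04, n = 3), where it overlapped TpB. Thymus values come from another library type and are not strictly comparable with the rest.

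The genotype difference was also compared between flight and ground mice. For Nnt the median over tissues was 1.08 on the ground and 1.11 in flight, for Wdfy1 0.96 and 1.01, for Tmem267 -1.48 and -1.30, and for Cdc42bpg -1.21 and -1.26. The largest gap between flight and ground in any tissue was 0.47 for Nnt, 0.34 for Wdfy1 and 0.41 for Tmem267, beside a range over tissues of 1.07, 1.10 and 0.71. For Cdc42bpg, Bcat2 and Lancl1 the gap, at 0.46, 0.58 and 0.44, came nearer to the range over tissues of 0.52, 0.66 and 0.65. It was 0.48 beside 1.26 for Acadl, 0.35 beside 0.54 for the Entpd4 pair and 0.11 beside 0.21 for Capza1. The test of the difference between the flight and ground genotype effects called none of the 81 gene and tissue pairs, and 0% of all genes in TpB, MdB, Spl, Liv, eWAT, iBAT, Thy, Kid and Cbr, by edgeR. Without adjustment 6 of the 81 pairs had p under 0.05, and 1.77% to 8.43% of all genes did depending on the tissue; DESeq2 called 0 to 103 genes a tissue and none of the listed identifiers.
The smallest p among the listed genes was that of Lancl1 in Liv (adjusted p = 1 in edgeR), where the KO minus WT difference was 0.39 on the ground and -0.05 in flight. Bcat2 in eWAT followed (adjusted p = 0.462 in edgeR), with -0.70 on the ground and -0.12 in flight.

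Flight itself was tested on the same genes, since it did not choose them. The flight and ground experiments were run at different times of the year. Flight mice were dissected in California after the return journey, and the ground experiment was run in Japan. Flight therefore cannot be told apart from the time of the experiment, the site or the return to Earth. Of the 9 distinct genes, flight called 4 in Liv against 11% of all genes, 3 in eWAT against 22%, 7 in iBAT against 44%, 7 in Thy against 48.7% and 1 in Kid against 1.41%. None was called in Spl, where 8.09% of all genes were, in Cbr (0.0488%), or in TpB and MdB, where no gene was called (0%) although 4.95% to 6.64% of genes had an unadjusted p under 0.05 and DESeq2 called 20 to 24.
In Liv, Nnt rose in flight. GC_WT mice had 19.1 to 28.8 TPM and FL_WT mice 25.9 to 33.9, and GC_KO mice 45.7 to 57.9 and FL_KO mice 76.4 to 97.5, so the KO groups did not overlap. The flight log2 fold change was 0.51 (SE 0.0646, adjusted p = 2.17e-05 in edgeR). Acadl rose as well, by 0.44 (SE 0.0748, adjusted p = 0.00049 in edgeR), with GC_WT mice at 134 to 172 TPM and FL_WT mice at 194 to 253. Lancl1 fell by 0.63 (SE 0.0609, adjusted p = 5.88e-07), and Cdc42bpg rose by 0.20 (SE 0.0609, adjusted p = 0.0406), a call lost without FL09 (adjusted p = 0.0689) or FL12 (adjusted p = 0.0783), with the mouse number as a replicate block (adjusted p = 0.069), without the filter on low counts (adjusted p = 0.0829) and with FL04 included (adjusted p = 0.0545). Tmem267 in Liv, at 0.40 (SE 0.143), was not called (adjusted p = 0.0728 in edgeR) but was with the replicate block (0.38, adjusted p = 0.0258), in DESeq2 (adjusted p = 0.0486) and in limma (adjusted p = 0.0296).
In eWAT, Bcat2 fell by 0.56 (SE 0.104, adjusted p = 0.000477 in edgeR), Wdfy1 fell by 0.20 (SE 0.049, adjusted p = 0.00529), and the Entpd4 pair rose by 0.22 (SE 0.0351, adjusted p = 0.000125). The call of Wdfy1 was lost on log2(TPM + 1) (-0.13, adjusted p = 0.118 in limma). In Kid, Bcat2 fell by 0.34 (SE 0.07, adjusted p = 0.0354 in edgeR), a call lost when any of 9 of the 12 libraries was left out (adjusted p = 0.0591 to 0.105), with the replicate block (adjusted p = 0.23) and on log2(TPM + 1) (adjusted p = 0.0699 in limma).
In iBAT, Nnt rose by 0.91 (SE 0.189, adjusted p = 0.000497 in edgeR). In TPM the GC_WT mice, at 0.41 to 0.55, lay below the FL_WT mice at 0.56 to 1.39. These values rest on few reads, with expected counts of 16 to 22 in GC_WT and 22 to 55 in FL_WT mice. The muscle-bearing libraries were all flight libraries, and without them the change was 0.58 (SE 0.152, adjusted p = 0.00463). Cdc42bpg rose by 0.27 (SE 0.0655, adjusted p = 0.00209) and by 0.29 (adjusted p = 0.00433) without those libraries, and Wdfy1 by 0.17 (SE 0.055, adjusted p = 0.0165) and 0.20 (adjusted p = 0.0109), although without the filter on low counts Wdfy1 was no longer called (adjusted p = 0.0724). The calls of Tmem267 (log2 0.40, adjusted p = 0.0429) and Bcat2 (0.22, adjusted p = 0.0394) were lost without them, at adjusted p = 0.129 and 0.0769. That of Tmem267 was also lost without FL01, FL11 or FL12 alone (adjusted p = 0.0656 to 0.0988), without the filter on low counts (adjusted p = 0.0779) and with FL04 included (adjusted p = 0.051). That of Bcat2 was also lost without FL09, FL11 or FL12 (adjusted p = 0.0565 to 0.0912), without the filter (adjusted p = 0.0842) and with the replicate block (adjusted p = 0.0603).
In iBAT and Thy some directions depended on the scale. Flight differences on log2(TPM + 1) were shifted against those on normalised counts by a median over all genes of 0.35 in iBAT and 0.23 in Thy. Acadl and Lancl1 in iBAT, at -0.26 and -0.15 on the count scale (adjusted p = 5.82e-05 and 0.0231 in edgeR), were 0.10 and 0.25 on the TPM scale, and Capza1 and Bcat2 in Thy, at -0.24 and -0.14 (adjusted p = 2.53e-05 and 0.00197 in edgeR), were 0.01 and 0.10, so no direction is given for these 4. Nnt in Thy, at -0.13 on the count scale (SE 0.0408, adjusted p = 0.0128 in edgeR), was likewise higher in flight in TPM, at 14.3 to 16.8 in FL_WT against 13.3 to 15.2 in GC_WT mice, and gets no direction either. Cdc42bpg in Thy rose on both scales, by 0.29 (SE 0.0501, adjusted p = 4.24e-05 in edgeR) and 0.44, as did Wdfy1, by 0.28 (SE 0.0742, adjusted p = 0.00318) and 0.30, and Acadl, by 0.22 (SE 0.069, adjusted p = 0.0113) and 0.42. The Entpd4 pair rose by 0.10 in Thy (SE 0.0359, adjusted p = 0.0191 in edgeR); for the identifier Entpd4b alone the call was lost in DESeq2 (adjusted p = 0.0859) and without the filter on low counts (adjusted p = 0.118).

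Single mice were followed across their tissues by the median deviation of log2(TPM + 1) from their own group. For Tmem267 these medians were wide in the Nrf2-KO mice. FL09 lay at -0.61 over 7 tissues, each of them between -0.93 and -0.45, GC09 at -0.41, FL12 at 0.34 and GC01 at 0.51. Among WT mice GC03 lay at 0.44 and the other 11 between -0.09 and 0.09. For each of the other 8 genes the medians of all 23 mice lay between -0.15 and 0.16. FL09 lay below its group in all 7 of its tissues for Tmem267, whereas for Nnt, its neighbour on the chromosome, the medians ran from -0.14 to 0.16. These deviations were not tested.

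**Figure D4:**
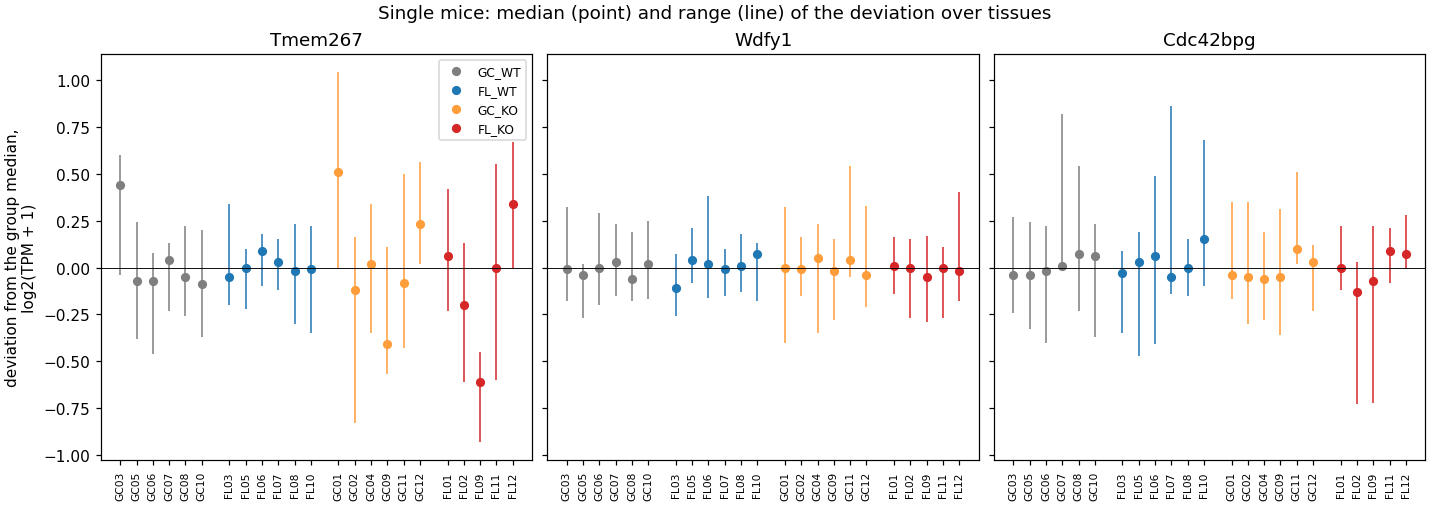
Deviation of each of the 23 mice from its group median in log2(TPM + 1), with the median over tissues (point) and the lowest to highest tissue (line), for Tmem267, Wdfy1 and Cdc42bpg, coloured by group. For Tmem267 the KO mice FL09 and GC01 lie at -0.61 and 0.51, and for Wdfy1 and Cdc42bpg the medians lie between -0.13 and 0.15.

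By position, the 9 distinct genes lay on chromosomes 1 (Acadl, Lancl1 and, 12.7 Mb from Lancl1, Wdfy1), 3 (Capza1), 7 (Bcat2), 13 (Nnt and Tmem267), 14 (the Entpd4 pair, with starts 218 kb apart) and 19 (Cdc42bpg), and none on chromosome 2, which holds Nfe2l2. In GRCm38 coordinates, Nnt spans chr13:119335448-119408997 on the minus strand and Tmem267 chr13:119488039-119611059 on the plus strand. Acadl spans chr1:66830839-66863277, Lancl1 chr1:67000517-67038872 and Wdfy1 chr1:79702262-79776143, all on the minus strand. Capza1 spans chr3:104822779-104864505 on the minus strand, and on the plus strand lie Bcat2 at chr7:45570153-45589711, Entpd4 at chr14:69337174-69367270, Entpd4b at chr14:69555424-69585520 and Cdc42bpg at chr19:6306456-6325652. Their neighbours were tested by genotype and were not part of the choice. Within 1 Mb of a listed gene, 333 genes gave 2097 gene and tissue pairs, of which 98 were called higher and 147 lower in Nrf2-KO mice, 11.7% against 4.12% of all pairs. The median log2 fold change was -0.01 for these neighbours and 0.00 for all genes. Within 5 Mb of a listed gene the called share was 8.38% of 5666 pairs, and within 10 Mb of Nfe2l2 it was 7.6% of 947 pairs. These windows differ, and a share within 1 Mb of Nfe2l2 was not computed, so the loci are not ranked. Less than 1 Mb from Nfe2l2, Osbpl6 was called lower in 4 of 8 tissues and Rbm45 in 3 of 9. Agps was called higher in 4 and lower in 1 of 9 tissues, and Mtx2, Prkra and Fkbp7 in none of 9. None of the 159 genes within 10 Mb of Nfe2l2 was called in the same direction in 5 or more tissues. Over all genes tested 73 of 22582 were, and among the neighbours of listed genes 10 of 333. Since so few genes reach 5 tissues, their absence from a small set is not read as a result.
By locus, the share around Nnt and Tmem267 was 5.56% of 108 pairs. None of the 22 genes there was called in 5 or more tissues, which for so few genes is likewise not read as a result. Of the 3 protein-coding genes between them, Paip1 and 4833420G17Rik were called in none of 9 tissues, at median log2 fold changes of -0.06 and -0.08. The last, 3110070M22Rik, was called in none of the 3 tissues where it was tested. Ccl28, which starts past the end of Tmem267, was called lower in 3 and higher in 1 of the 6 tissues where it was tested. Its median log2 fold change was -1.40, at low median counts of 13 in WT and 5 in KO libraries. Around Wdfy1 the share was 10.9% of 64 pairs and around Cdc42bpg 4.7% of 745 pairs. Around Acadl and Lancl1 it was 35.3% of 68 pairs, with 22 of the 24 called pairs lower. It was 15.3% of 242 pairs around the Entpd4 pair, 13.2% of 205 around Capza1 and 16.4% of 665 around Bcat2. These shares count overlapping genes separately. Of the 30 pairs called higher around the Entpd4 pair, Gm16867 gave 8 and Gm27177 gave 9, and both overlap the pair and may share its reads. Around Bcat2, Gm22133 lies inside Ftl1. The difference in share between loci was not tested.

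Ehd1, whose product drives recycling from endosomes, starts 29.7 kb from Cdc42bpg and was called lower in Nrf2-KO mice in 8 of 9 tissues, with a median log2 fold change of -0.50 and a range from -1.14 to -0.30. Rpe, an enzyme of the pentose phosphate pathway 130 kb from Acadl, was called lower in 5 tissues (median -0.29), and Gm37285, 31.2 kb from Acadl, in 5 of the 6 tissues where it was tested. Phtf1, 855 kb from Capza1, was called lower in 8 tissues (median -0.48). Near Bcat2, Ftl1, the ferritin light chain and a known Nrf2 target, was called lower in 7 tissues (median -0.54). The annotated microRNA Gm22133, which lies inside Ftl1, was called lower in 5, Tmem143 was called lower in 5 (median -0.23), and Pih1d1 was called higher in 6 (median 0.41).
Next to the Entpd4 pair, each copy has an annotated gene on the opposite strand over its end. Gm16867, which overlaps Entpd4, had no count in any of 96 WT libraries and was at 0 in only 14 of 88 KO libraries, with a KO median of 26.5 counts, and it was called higher in all 8 tissues where it was tested. Gm27177, which overlaps Entpd4b, had a median of 2 counts in WT libraries and 144 in KO libraries and was called higher in all 9. The libraries were made strand-specific, but the strand setting of the counting is not given in the sources used here, so these values and those of the Entpd4 pair may share reads.

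**Figure D5:**
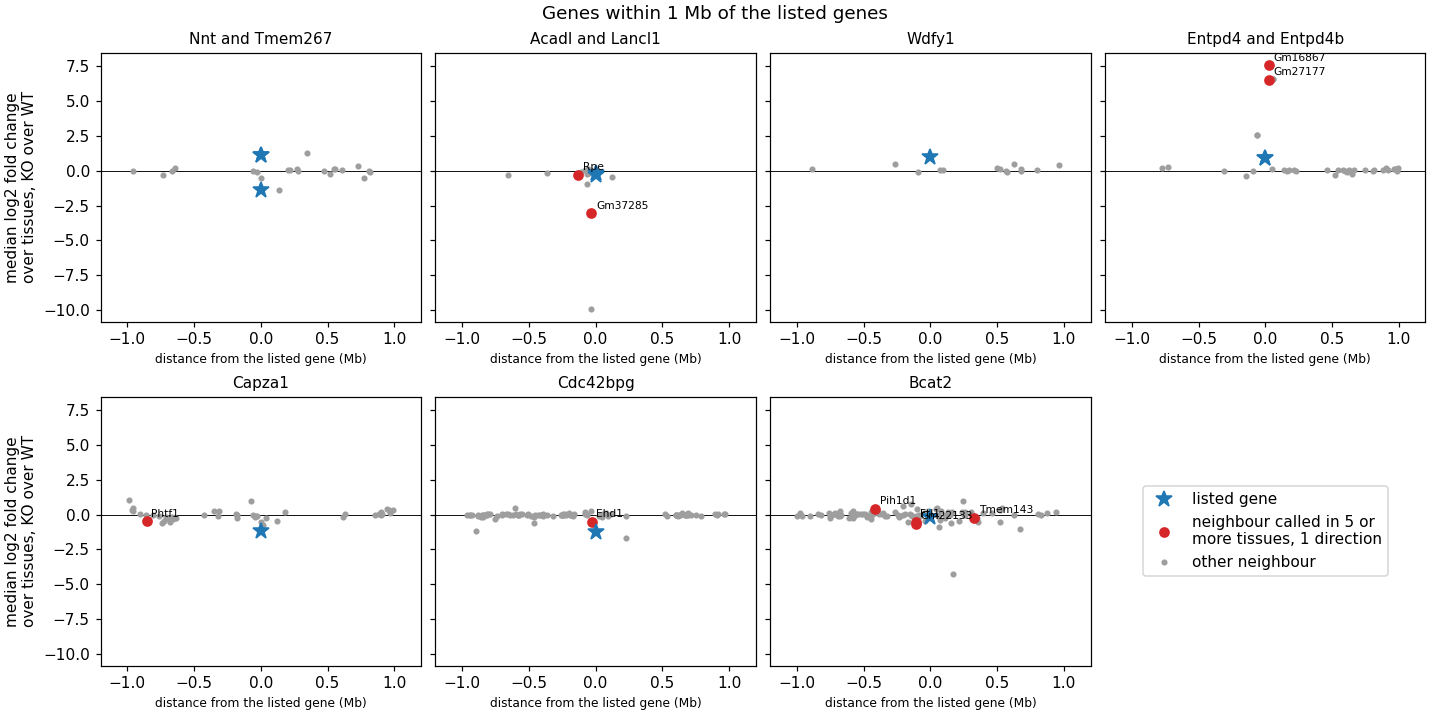
Median genotype log2 fold change over tissues (KO over WT, vertical axis) of each gene tested within 1 Mb, against the distance of its start from the nearest listed gene in Mb, in 1 panel for each locus. Listed genes are blue stars, and neighbours called in the same direction in 5 or more tissues are red and named. The red points are 10 of 333 neighbours, beside 73 of all 22582 genes tested. Of the 10 red points, 4 lie around Bcat2 and 2 at the Entpd4 pair, and no neighbour of Nnt, Tmem267 or Wdfy1 is red. Fitted values of genes with WT or KO counts at or near 0, such as Gm16867, depend on the prior count and do not measure the size of the difference.

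Genes outside the list were also called in every tissue. Of 11230 genes tested in all 9 tissues, 16 were called in 1 direction in each (0.142%), 7 of them higher (0.0623%) and 9 lower (0.0801%) in Nrf2-KO mice, and for 11 genes (0.098%) WT and KO mice overlapped in no tissue in TPM. The listed identifiers were 6 of the 16, and Nfe2l2 was another. Of the other 9, Gm13301 and Gm17167 overlap on chromosome 4 and Gm5859 lies next to them, so they are not 3 separate loci. Gm13301, Gm5859 and Gm17167 were nearly absent in Nrf2-KO mice, with medians of 0 counts in KO libraries against 106, 116 and 65.2 in WT libraries. Gm27177, Gm7868, Gm3608 and 1500015A07Rik were higher, with Gm7868 at a median of 0 counts in WT and 47.4 in KO libraries, and 1500015A07Rik at 44 and 112. Sfxn2, a mitochondrial carrier of the sideroflexin family, had a median log2 fold change of -0.94 and a range from -1.95 to -0.51, and 2810002D19Rik, on chromosome 2 but 18.7 Mb from Nfe2l2, had the same median. In addition, 12 genes were called in 1 direction in 8 tissues and 8 in 7, while 75.3% of the 11230 were called in none.

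Across the 184 libraries, with each gene centred on its tissue mean, Cdc42bpg and Capza1 were most like Gm13301 (Pearson r = 0.938 and 0.924) and then Gm5859 (0.914 and 0.912), and Tmem267 was most like Cdc42bpg (0.877) and Gm13301 (0.876). Wdfy1 was most like Entpd4b and Entpd4 (0.903 and 0.902), and each of the latter most like the other (0.956) and then Gm3608 (0.904). These correlations hold the difference between genotypes that chose the genes, and the libraries come from 23 mice. Acadl was instead most like Etfdh (0.698) and Acadvl (0.69), both of fatty acid oxidation, and Bcat2 most like Sfxn2 (0.622) and Gclc (0.58), the latter a subunit of the enzyme that starts glutathione synthesis. Lancl1 was most like Aldh7a1 (0.547) and Tm2d3 (0.545). The Nnt identifier ENSMUSG00000025453 was most like 1500015A07Rik (0.708) and Gm3608 (0.681), and ENSMUSG00000116207 most like Gm7868 (0.588) and Gm3608 (0.58).

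Genes that work beside the listed ones were tested by genotype as lists. Of 15 genes of mitochondrial NADPH supply and use, which give the setting of Nnt, 1 of 129 gene and tissue pairs was called higher and 6 lower in Nrf2-KO mice (median log2 fold change -0.01). Gpx4, a glutathione peroxidase that removes lipid peroxides, made up 3 of the 6, at -0.45 in Liv, -0.38 in Kid and -0.22 in Thy. Of 20 genes of branched-chain amino acid breakdown, which follow Bcat2, 3 of 179 pairs were higher and 11 lower (median -0.03). Of 17 acyl-CoA dehydrogenases and genes of long-chain fatty acid oxidation, the setting of Acadl, none of 147 pairs was higher and 11 were lower (median -0.06). Apart from Acad11 in eWAT, these calls were all in iBAT or Thy, where 3.3% and 11.4% of all genes were called. Among relatives of the remaining listed genes, 2 of 132 pairs were higher and 8 lower (median -0.01), and Entpd5, an ER-resident relative of Entpd4, made up 4 of the 8, at -1.22 in Liv, -0.95 in Kid, -0.48 in iBAT and -0.34 in eWAT. Over the 4 lists 7.16% of pairs were called against 4.12% of all pairs. None of the 68 genes of these lists was called in 5 or more tissues, beside 73 of all 22582 genes tested.

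An antioxidant response element core, TGACNNNGC on either strand, was searched in the RefSeq promoters (GRCm38.p6, 250 bases before to 50 after the start). Of the 10 names, 6 had a promoter entry (Acadl, Lancl1, Capza1, Bcat2, Tmem267 and Entpd4b), and only that of Capza1 held the core, while 14% of 27025 genes did. The match covers the last base before the start of Capza1 and the first bases of the transcript, as the stretch from 60 bases before to 30 after the start at chr3:104864476-104864565 (minus strand) shows in capitals.
Capza1 start: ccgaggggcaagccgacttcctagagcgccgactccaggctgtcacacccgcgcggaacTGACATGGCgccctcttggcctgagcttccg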

How the data were processed

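RNA-seq libraries from 9 tissues were grouped by genotype and by flight or ground as the labels give them. The deposited table holds expected counts and TPM for 54752 gene identifiers in 192 samples. Per the submitters' processing notes and the study's methods, the authors aligned single reads of 76 bases to mm10 with STAR 2.6.1 and made the expected counts and the TPM values with RSEM 1.3.1; the strand setting of that counting is not given in the sources used here. TPM sums to the same total in each library and keeps no depth.

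Expected counts were rounded and fitted within each tissue by edgeR 4.0.16 (R 4.3.3, TMM factors, quasi-likelihood test) over the 4 groups after edgeR's filter on low counts, which kept 13433 to 18184 genes a tissue, with Benjamini-Hochberg adjustment over all of them and a threshold of 0.05. Genotype is the mean of the flight and ground differences, and flight the mean over genotypes. The 8 libraries of flight mouse 04 were left out and are given as an alternative. Where labels name separate animals, p-values measure the spread between these mice. The members and lists were chosen with earlier results of these data known, so the genotype p-values of the members are not given as tests. Genes outside the list were named where they were called in 1 direction in enough tissues. The limit was 5 or more tissues within 1 Mb of a member or 10 Mb of Nfe2l2. It was 3 or more tissues in a pathway list and all 9 for other genes. Nfe2l2 and the 2 genes most like each member by Pearson correlation of log2 CPM centred on the tissue were named too. Gm3608, Paip1, 4833420G17Rik, 3110070M22Rik, Ccl28, Osbpl6, Rbm45, Agps, Mtx2, Prkra and Fkbp7 were also described after their values were seen. As alternatives, the same contrasts were fitted by DESeq2 1.42.0 and by limma 3.58.1, the latter on TPM values with a pseudocount of 1 and a minimum group mean of 5 TPM, and with other size factors, FL04 included, a block for the library number range in TpB, no filter, leaving out single libraries of groups of 5 or fewer, and a block for the mouse number. The numbers were checked for pairing: flight and ground mice of 1 number are different animals, and with 3 or more pairs every pair's deviations correlated above 0.1 only in Liv of Nrf2-KO mice (0.222 to 0.369). The fit was tested on simulated data: in Spl it called 73% of genes changed by 0.5 on the log2 scale by genotype and 90% of those changed by 1, among 16170 genes, and in MdB 42% and 72% among 16361. Sequences came from the annotated transcripts (GRCm38) and RefSeq promoters (GRCm38.p6).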

Additional observations from a re-analysis of the deposited data

Results flagged for a closer look

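Single mice stood apart from the rest of their group, by the gap to the nearest mouse relative to the whole range, in 16 groups of a gene and tissue out of 252 examined; chance gives about 1 in 20 groups. The ground WT mouse GC08 was the high mouse in 5 of them: Nnt in Liv at 28.8 TPM (other mice 19.1 to 21.9), Cdc42bpg in Liv at 12.1 (7.88 to 8.83), Acadl in Thy at 15.5 (12.3 to 13.5), Wdfy1 in iBAT at 2.79 (2.18 to 2.4) and Bcat2 in iBAT at 113 (53.1 to 71.6).

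Among Nrf2-KO mice, Nnt in iBAT reached 7.43 TPM in FL11, whose library held muscle transcripts, against 2.2 to 3.59 in the other 4 mice. Tmem267 in Spl was 7.75 TPM in GC01 against 4.58 to 5.62, the Entpd4 pair in TpB was 226 TPM in GC01 against 100 to 122, and Bcat2 in iBAT was 52.5 TPM in GC12 against 34.2 to 39. The TpB library of GC01 held 159 TPM of forebrain and 55 TPM of cerebellar transcripts, and the part of muscle or neuronal RNA in these values was not tested.

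Among WT mice, Nnt in Thy was 13.3 TPM in GC10 against 14.5 to 15.2, Lancl1 in eWAT was 35.7 in GC06 against 42.5 to 44.6, and Lancl1 in Cbr was 148 in FL10 against 157 to 162. Wdfy1 in Liv was 8.76 TPM in FL06 against 5.88 to 6.8, the Entpd4 pair in Cbr was 60.8 in GC03 against 42.5 to 48.8, Capza1 in eWAT was 67 in FL03 against 48.9 to 51.6, and Bcat2 in Spl was 48.9 in GC07 against 51 to 51.9.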

How the results depend on the processing

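Of the 99 identifier and tissue pairs, 81 were called by genotype (beside 4.12% of all pairs), a count that restates how the list was chosen and is no evidence of stability. Flight called 23, and 0 were called by the difference between the flight and ground genotype effects. Leaving out 1 library at a time was done only for the 58 of 184 libraries in groups of 5 or fewer. Outside MdB and Kid these were the FL_KO libraries alone. Those fits gave 79 to 82, 21 to 24 and 0 to 0 calls. They moved the 245 calls among neighbours to 237 to 251 and the 42 calls in the pathway lists to 37 to 49. Widening the neighbourhood from 1 to 5 Mb gave 475 calls, because more genes were counted. With the mouse number as a replicate block, flight called 22 pairs, with 3 calls lost and 2 gained, and the cause was not tested; genotype lies between the numbers and could not be blocked. Adding the counts of Gm3608 to Capza1, an alternative chosen after seeing the data, moved the median genotype difference of Capza1 from -1.18 to -0.10. The sums for Nnt and the Entpd4 pair and the fits without muscle-bearing libraries were also chosen after seeing the data. Without the filter on low counts flight called 18 pairs, with 5 calls lost (Cdc42bpg in Liv, Bcat2, Wdfy1 and Tmem267 in iBAT and Entpd4b in Thy), and with FL04 included 21, with 2 lost. On log2(TPM + 1), 4 flight calls were lost, 7 were gained and 4 called pairs turned direction. The medians of the other listed identifiers moved by less than the SD of their log2 fold change over tissues under all 7 planned settings. For Acadl this SD was 0.35 beside a median of -0.18, and for Bcat2 0.25 beside -0.20. The limit was thus wider than the median itself for these genes, and passing it shows little about their stability. In the simulation 42% of genes changed by 0.5 by genotype were called in MdB and 73% in Spl, and the other tissues were not simulated, so a missing call does not show that there was no difference.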

Other observations

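The libraries of flight mouse 04, an Nrf2-KO animal left out of the comparisons, gave 72 values for the 9 distinct genes in 8 tissues. Of these, 62 lay within the range of the other Nrf2-KO mice (11, or 5 in MdB), 6 above it and 4 below it. Nnt was at 29.1 TPM in eWAT, where the other Nrf2-KO mice ran from 30.4 to 39.1 and WT mice from 10.3 to 14.1. Lancl1 was at 137 TPM in Cbr, between the other Nrf2-KO mice at 108 to 133 and the WT mice at 142 to 167. Tmem267 lay within the Nrf2-KO range in all 8 tissues, from 3.22 TPM in Thy to 25.2 in Cbr.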
